A study of Arabidopsis thaliana with 2 samples.

Results

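The microRNA precursors described here are the hairpins of Arabidopsis thaliana whose family number is 770 or higher, leaving out mir779, mir822, mir824 and mir863. Such high numbers stand for young families here, but the age of each family was not checked. These precursors were chosen by name alone, and the rule took 44 of the 151 precursors of the series. Of these, 41 were listed in the fiery library and 29 in the wild-type library, with 26 in both, 15 in fiery only and 3 (mir832, mir837 and mir867) in wild type only. Cut sites were read by SPARE, in which free 5′ ends of RNA receive an adaptor and each fragment is copied from a primer specific to its precursor. The study has a fiery mutant library, labelled with no allele, and a Col-0 wild-type library, 1 of each. Both were mixtures of seedlings aged 2 weeks with leaves and inflorescences of plants aged 5 weeks, all grown at 23 °C and 16 h of light. Since the primers were specific to precursors, the mutated gene and tissue markers gave no check of the labels. With 1 library per genotype, no difference between them has a replicate check, and no p-value is given.

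Plant microRNAs are cut from hairpin transcripts in the nucleus by DICER-LIKE enzymes, mostly DICER-LIKE1, in paired cuts on the 2 arms of the stem. On the 3′ arm, cutting near the stem's base yields a fragment whose first base follows the product (the base-side cut), whereas cutting near the loop yields one starting with the product itself (the loop-side cut). Old families are known for precise cuts, while young, species-restricted precursors often have long stems, weak expression and products with several ends. The annotation places 1 product on the 3′ arm of 33 of the 44 precursors, 2 on that of mir780, and a 5′ arm product only on the other 10. The hairpins were 85 to 400 nt long as annotated, with a median of 186.5 nt, and 17 of the 44 overlapped a protein-coding gene, 15 on its strand and 2 on the opposite strand. The 62 annotated mature RNAs had 62 different seeds (bases 2 to 8), so no 2 members shared one.

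The sequences below show where the fragments began. They are shown for the precursor with the most reads in each library, and for those with the 3 highest and the 3 lowest shares of fiery reads at the main 5′ end among precursors of at least 30 reads. The mature RNAs come from the TAIR10.1 genome at the RefSeq annotation, written as DNA with the seed in capitals.
miR825: tTCTCAAGaaggtgcatgaac
miR845b: tCGCTCTGataccaaattgatg
miR776: tCTAAGTCttctattgatgtt
miR870-3p: tAATTTGGtgtttcttcgatc
miR841a-3p: aTTTCTAGtgggtcgtattca
miR856 (5′ arm): tAATCCTAccaataacttcagc
The next set comprises tags from the deposited files, with bases that lie inside a mature RNA in capitals. The mir844 tag lies at the only end shared with wild type, and not at the main fiery end, which had 6 reads. A tag that starts in capitals began at the first base of the product or further inside it, and one with no capitals began after it or elsewhere.
mir825, fiery, 127 reads: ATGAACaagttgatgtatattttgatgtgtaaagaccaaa
mir825, fiery, 94 reads: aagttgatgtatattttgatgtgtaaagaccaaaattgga
mir825, fiery, 17 reads: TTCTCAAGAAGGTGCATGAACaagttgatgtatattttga
mir776, fiery, 30 reads: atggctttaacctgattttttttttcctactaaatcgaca
mir870, fiery, 34 reads: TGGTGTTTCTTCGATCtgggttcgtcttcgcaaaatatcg
mir870, fiery, 22 reads: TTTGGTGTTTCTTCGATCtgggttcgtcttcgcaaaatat
mir841, fiery, 37 reads: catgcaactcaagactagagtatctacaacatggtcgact
mir841, fiery, 14 reads: atctacaacatggtcgacttggtgctat
mir856, fiery, 15 reads: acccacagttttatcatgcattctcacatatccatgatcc
mir845b, wild type, 63 reads: attttccccaatttctcgtagtcagt
mir835, fiery, 37 reads, opposite strand: ttctatctgaagaatcgagcattgca
mir844, fiery, 4 reads, opposite strand, in a coding exon of PAB4: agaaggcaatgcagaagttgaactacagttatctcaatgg
The whole mir776 and mir870 hairpins, with the mature RNAs in capitals, show where each product lies in the annotated stem. The mir776 hairpin lies at chr1:22795618-22795735 (plus strand) and that of mir870 at chr5:21395545-21395629 (minus strand), both outside protein-coding genes.
mir776: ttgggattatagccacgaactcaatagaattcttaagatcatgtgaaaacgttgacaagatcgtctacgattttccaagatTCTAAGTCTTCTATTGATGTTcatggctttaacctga
mir870: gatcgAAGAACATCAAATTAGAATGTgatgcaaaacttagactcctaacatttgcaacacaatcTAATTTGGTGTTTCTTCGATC

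The 44 precursors gave few reads. They held 1535 of the 33192 fiery reads, or 4.62% (4.40 to 4.86), and 316 of the 12129 wild-type reads, or 2.61% (2.33 to 2.90). Bracketed ranges are exact 95% intervals, by Clopper-Pearson for a share and by the conditional binomial for a ratio. They cover the counting error of reads alone and no spread between libraries. Amplified reads carried no molecular identifiers, so copies of a molecule were counted separately and the intervals may be too narrow. At least 10 reads were found for 28 members in fiery and 9 in wild type, and at least 30 reads for 13 and 3. The fiery reads came in 421 distinct tags, 234 of them read once. mir825, for which a 5′ arm product not annotated here has been reported to target disease resistance genes of the TIR type, had 328 fiery and 16 wild-type reads. mir841, whose precursor lies opposite the histone gene HTA4, had 155 and 32 reads. mir845b, whose product pairs with the primer-binding sites of retrotransposons, had 16 and 86, the most of any member in wild type. Where no read was listed, a share of up to 0.00904% in fiery or 0.0247% in wild type was still allowed (3 counts).

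**Figure D1:**
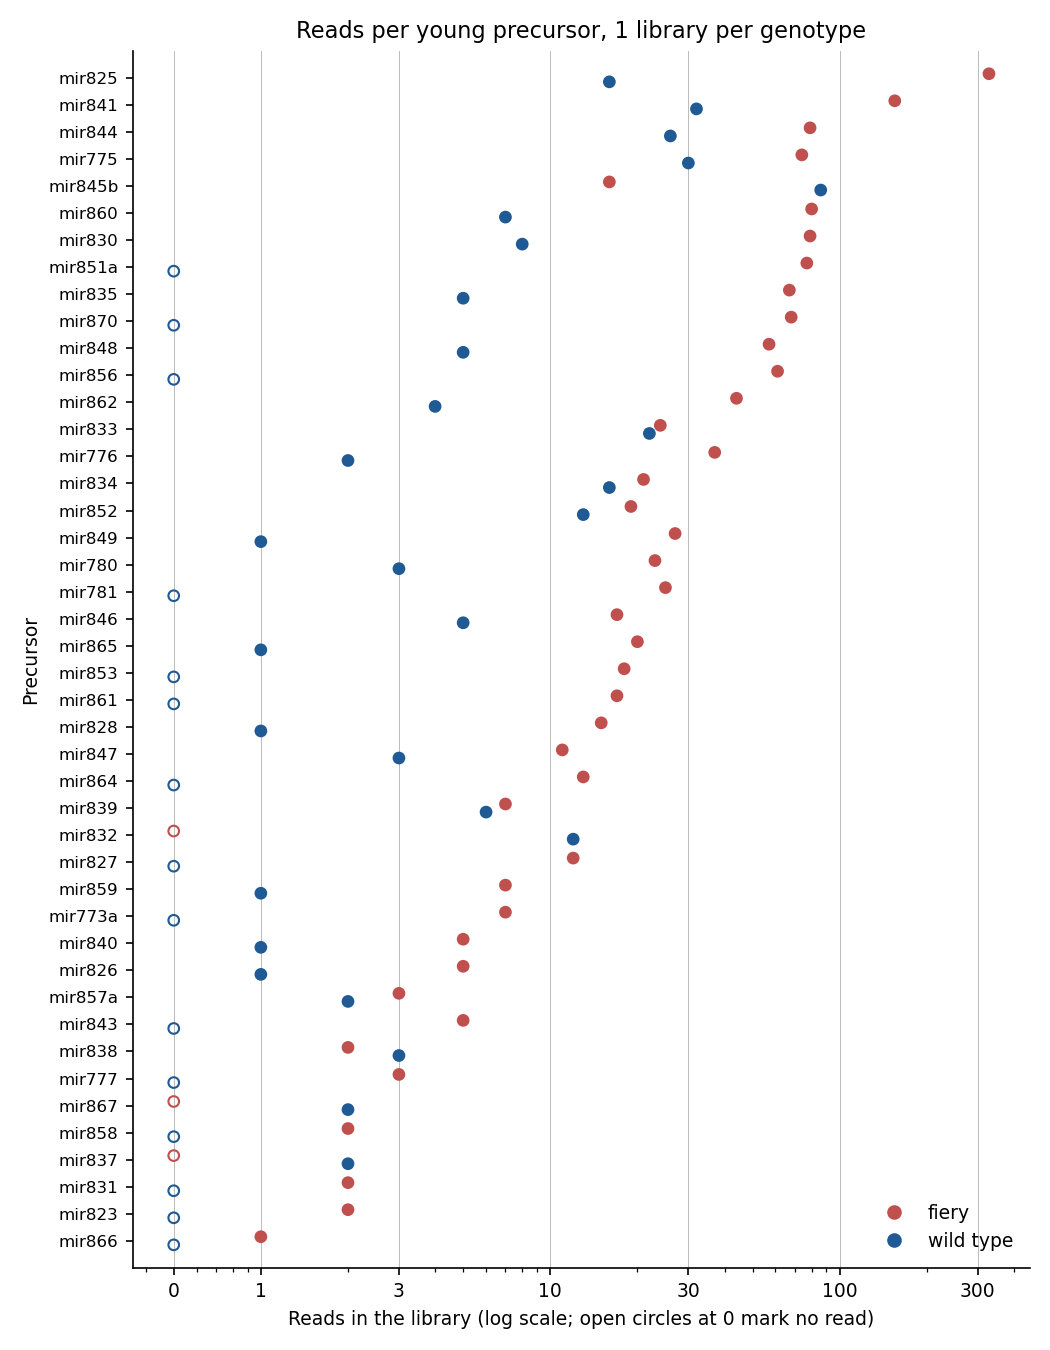
Reads of each of the 44 precursors in the fiery library (red) and the wild-type library (blue), on a log axis, with open circles for no read. mir825 leads in fiery with 328 reads and mir845b in wild type with 86, while 15 precursors had fewer than 10 reads in both libraries.

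Most reads lay away from the annotated cuts. Counting as a cut the first base of any annotated mature RNA and the first base after it, within 1 nt, the share of reads off the cuts was 76.1% in fiery (73.9 to 78.2) and 92.7% in wild type (89.3 to 95.3). Over the whole fiery library this was 40%, and 15.2% for the conserved families, while it was 92.7% for the other families below 770 and 79.0% for the 4 precursors left out by the rule. Over the whole wild-type library it was 72.2%, and 60.9% for the conserved families, while it was 90.9% for the other families below 770 and 91.8% for the 4 left out. In fiery, 19.9% of the members' reads were at the base-side cut, 2.28% at the loop-side cut and 1.69% at another annotated end. A further 26.1% (23.9 to 28.3) began inside a mature RNA, 25.3% elsewhere in the hairpin, 8.73% outside it within 200 nt, 6.12% on the same strand over 200 nt away and 9.90% on the opposite strand. In wild type 3.48% were at the base-side cut, 4.75% inside a mature RNA, 21.2% elsewhere in the hairpin and 37.0% outside it within 200 nt, most of the last from mir845b. Tag lengths were unequal: those of 35 nt or less held 18.4% of the members' fiery reads and 42.7% of their wild-type reads. With only tags longer than 35 nt the share off the cuts was 70.7% in fiery and 87.3% in wild type.

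**Figure D2:**
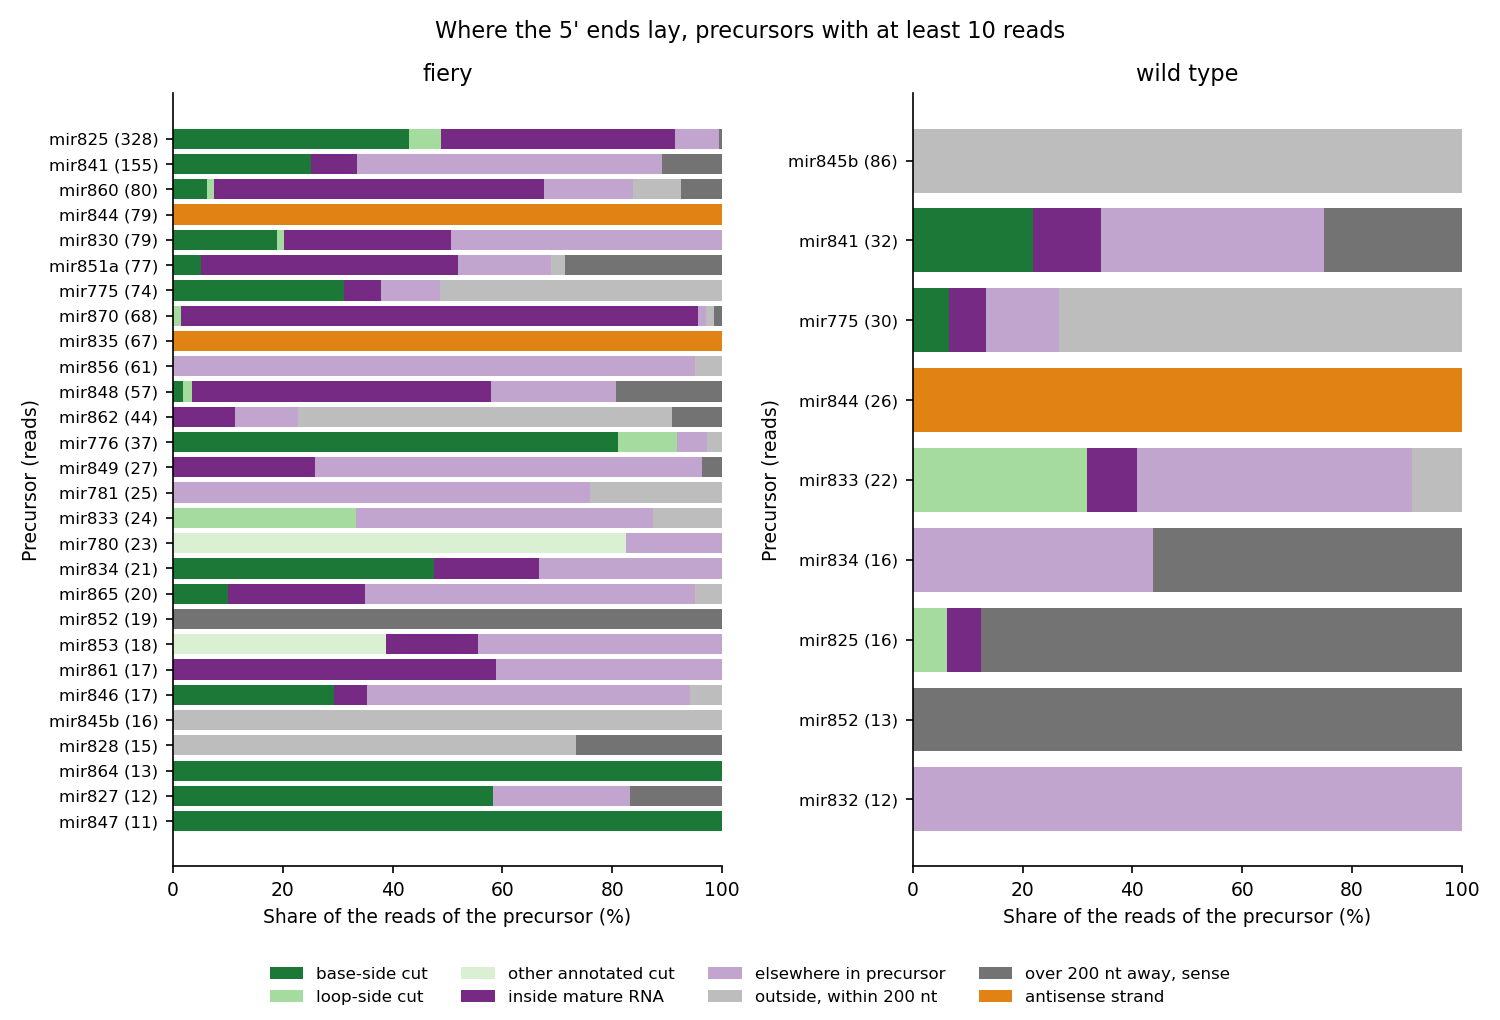
Share of the reads of each precursor by the place of the 5′ end, for precursors with at least 10 reads in fiery (left, 28 precursors) and wild type (right, 9 precursors), with the number of reads in brackets. Green marks annotated cuts, purple the inside of a mature RNA or of the hairpin, grey the flanks and orange the opposite strand; mir847 and mir864 are wholly green in fiery, and mir844 is wholly orange in both.

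The main 5′ end, the position with the most reads, held a median of 39.5% of the reads over the 28 members with at least 10 fiery reads, from 7.59% (mir844) to 90.9% (mir847). The median was 58.3% over all 93 precursors of the fiery library with that many reads and 74.6% over the 50 of conserved families. In wild type it was 36.7% over 9 members, from 19.2% to 100%, beside 55.3% over 76 precursors and 60.0% over the 48 conserved ones. When ends within 1 nt of the main end were counted together, the members' medians were 46.3% and 43.8%. The main end lay within 1 nt of an annotated cut in 10 of 28 members in fiery, where the share over all precursors was 54.8%, and in 2 of 9 in wild type, where it was 42.1%. Among members with 1 mature RNA on the 3′ arm it coincided with the base-side cut in 7 of 23 (fiery), beside 59.5% of all such precursors, and in 1 of 9 (wild type), beside 44.1%. For other families below 770 this was so in 1 of 5 (fiery) and 0 of 6 (wild type), and for the precursors left out by the rule in 1 of 3 in each library. The median main-end shares of these 2 groups were 55.1% and 54.1% in fiery, and 46.2% and 59.5% in wild type. No test between groups of precursors is given.

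**Figure D3:**
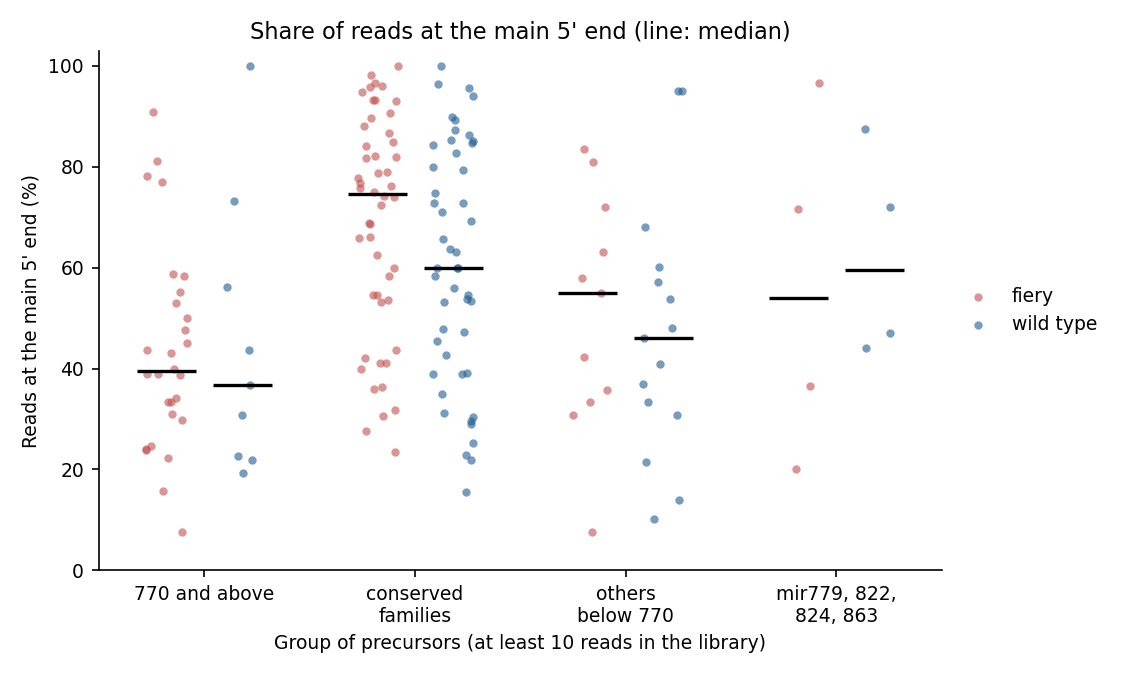
Percent of the reads of each precursor at its main 5′ end, for precursors with at least 10 reads in fiery (red) and wild type (blue), by group, with the median as a line. The median of the precursors numbered 770 and above was 39.5% in fiery and 36.7% in wild type, and that of the conserved families 74.6% and 60.0%, with wide overlap between single precursors.

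In 7 members the main fiery end was at the base-side cut. mir776, whose predicted target is a protein kinase, had 30 of its 37 fiery reads (81.1%, 64.8 to 92.0) 1 nt past the base-side cut (position 22795721 of chromosome 1), and 1 of its 2 wild-type reads there. mir847, whose product targets the auxin repressor gene IAA28, had 10 of 11 fiery reads exactly at the cut, and 1 of 3 wild-type reads within 1 nt of it. mir864 had 10 of 13 fiery reads 1 nt before the cut and the other 3 within the next 2 nt, so that all 13 counted as within 1 nt. mir827, whose product targets the ubiquitin ligase gene NLA of phosphate homeostasis, had 7 of 12 fiery reads exactly at the cut. mir834, which lies inside the gene AT5G08230, had 10 of 21. mir864 and mir827 had no wild-type read, and the wild-type reads of mir834 lay elsewhere.

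mir780 carries 2 annotated products one after the other on the 3′ arm, and miR780.1 targets a cation/proton exchanger gene. It had 18 of its 23 fiery reads (78.3%, 56.3 to 92.5) directly after miR780.2, the one nearer the base, and no read at the border between the 2 products. In wild type 1 of 3 reads was at the same end. mir775, whose product targets a galactosyltransferase gene, had 23 of 74 fiery reads and 2 of 30 wild-type reads 1 nt past its base-side cut. Its other cluster lay upstream of the hairpin at nt -235 to -233, counted from the first base of the annotated precursor, with 30 fiery reads (14, 12 and 4). In wild type 18 of its 30 reads were at nt -234 and -233 (11 and 7). These tags ended just under 200 nt from the hairpin and so did not count as distant. mir841 had 37 of 155 fiery reads and 7 of 32 wild-type reads exactly at the base-side cut (position 7885295 of chromosome 4). This was its main end in both libraries, yet it held 23.9% and 21.9% of reads that spread over 34 and 13 ends.

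In 6 members the main fiery end lay inside the annotated mature RNA: mir825, mir860, mir851a, mir870, mir848 and mir861. Over all 93 precursors with at least 10 fiery reads this was so in 8, or 8.6%, and in wild type in 0 of 76. mir825 (chr2:11159660-11159845, plus strand, in no protein-coding gene) had 127 of its 328 fiery reads at base 16 of the 21 nt product, 6 nt before the base-side cut (position 11159789 of chromosome 2). The base-side cut held 141, of which 94 were at the exact position and 47 at the next one. A further 17 reads began at the first base of the product, which with the window of 1 nt made 19 loop-side reads. mir870 (68 fiery and 0 wild-type reads) had 34 reads at base 6 and 22 at base 4 of miR870-3p, 16 and 18 nt before the base-side cut, and 0 at that cut. Of its reads, 64 began inside the product, as its hairpin and tags above show.

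mir860, which lies in an untranslated exon of the ferrochelatase gene FC1, had 32 of 80 fiery reads at base 13 of its product and 5 at the base-side cut. Its reads spread over 34 ends, 26 tags being read once. mir848, inside an intron of AT5G13890, had 17 of 57 fiery reads at base 6 and 8 reads 5 nt further on, with 1 read at each cut. mir861 had 10 of 17 fiery reads at base 9 of its 3′ arm product. mir851a had 30 of 77 fiery reads at base 20 of its product, only 2 nt before the base-side cut, so a window of 2 nt would count it as cut there. The ends of mir830 lay both near the product and outside it. It had 27 of 79 fiery reads 25 nt before the base-side cut, just upstream of miR830-3p, and 15 exactly at the cut and 14 at a position 2 nt before it. Its 8 wild-type reads lay at other positions. mir865 had 9 of 20 fiery reads 8 nt beyond its base-side cut and 2 within 1 nt of the cut, and its only wild-type read began inside the 5′ arm product.

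**Figure D4:**
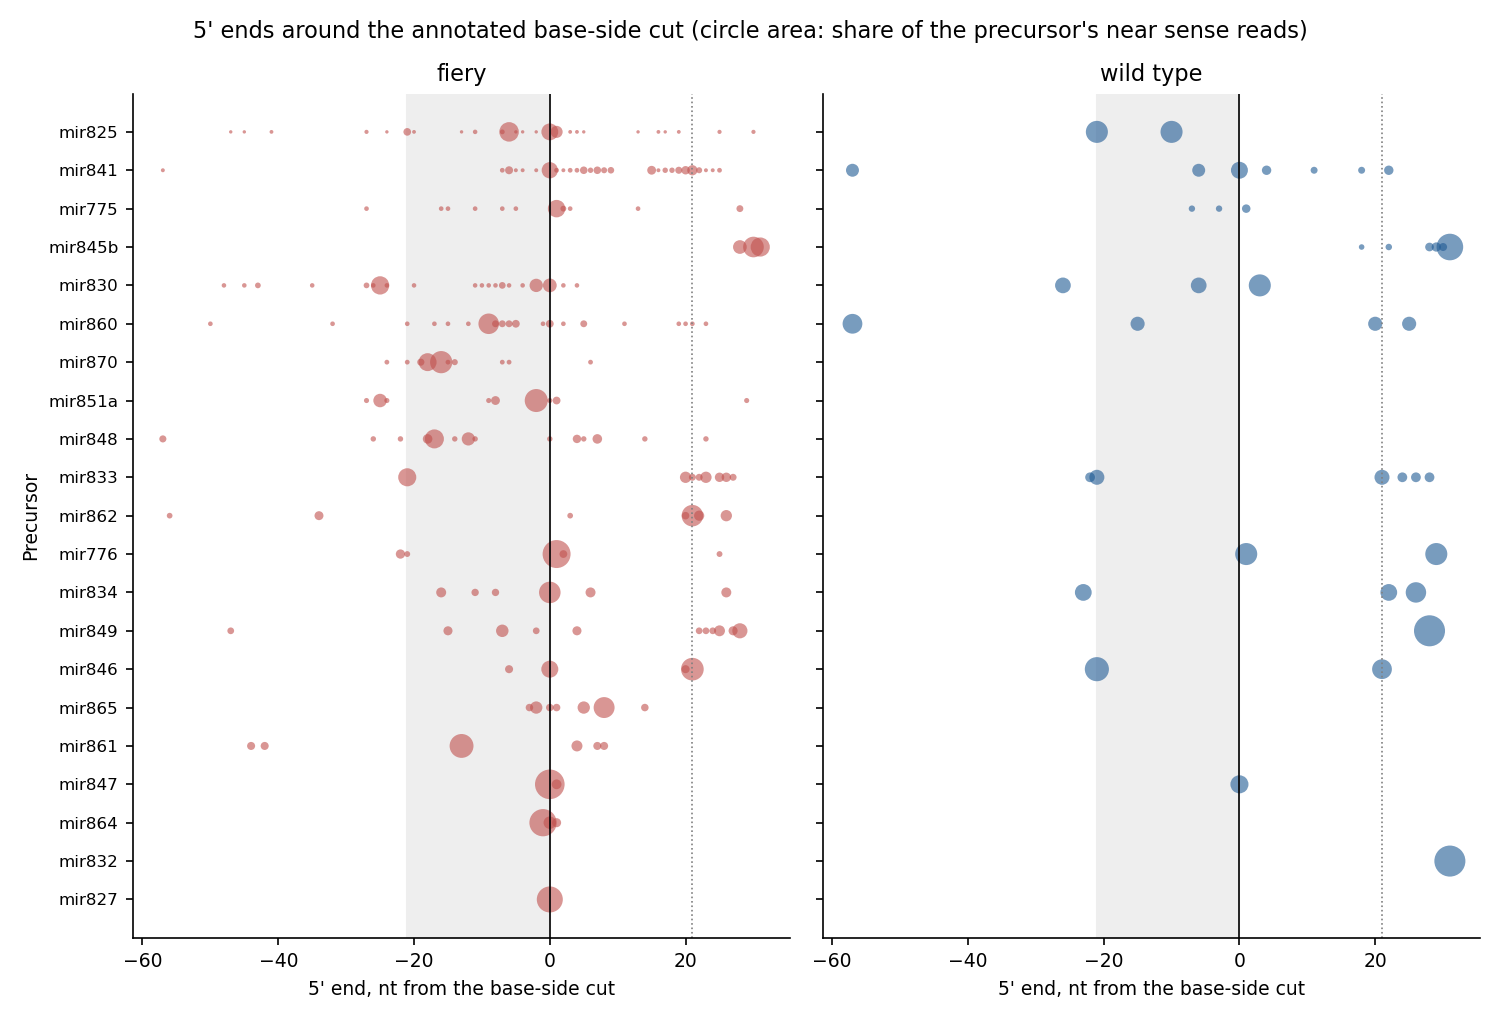
Distance of 5′ ends from the annotated base-side cut (0, solid line) in precursors with 1 mature RNA on the 3′ arm and at least 10 sense reads within 200 nt in either library, fiery left and wild type right. The shaded band covers the 21 nt before the cut, the usual place of the product, the dotted line marks 21 nt beyond it, and circle area grows with the share of those sense reads; mir825 shows circles at -6 and 0 in fiery, mir862 and mir846 at 21, and mir845b at 30 and 31.

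Other ends lay beyond the base-side cut. Between 20 and 23 nt beyond the cut, a window taken from earlier results on these data, lay 82 fiery reads (6.0%) and 15 wild-type reads (4.97%) of the members with 1 mature RNA on the 3′ arm, beside 10.5% and 11.8% over all such precursors. In fiery and wild type the share was 0.36% and 1.67% for conserved families, and 33.7% and 32.6% for other families below 770. For the precursors left out by the rule it was 47.8% and 79.8%. All 82 and all 15 were in tags of 35 nt or less, which within a precursor shared 1 3′ end, and whether these ends mark cuts was not tested. mir862, which lies in an intron of the chromatin remodeler gene PKL, had 25 of 44 fiery reads there, 19 of them exactly 21 nt beyond, and 0 at the cut itself. mir846, whose product targets jacalin lectin genes, had 10 of 17 fiery reads there and 5 at the cut, and 2 of 5 wild-type reads there. mir841 had 28 of 155 and 2 of 32, mir833 had 8 of 24 and 5 of 22, and mir773a, whose product targets a DNA methyltransferase gene, had 5 of 7 fiery reads 22 nt beyond the cut.

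mir845b (chr4:12214069-12214167, minus strand) had its reads still further out. In wild type 63 of 86 (73.3%, 62.6 to 82.2) were 31 nt beyond the base-side cut, downstream of the annotated hairpin, and in fiery 7 and 6 of 16 were 30 and 31 nt beyond it. It had no read at a cut in either library, and 16 fiery and 83 wild-type reads of its short tags shared 1 3′ end. mir832 had a single tag of 26 nt, with all 12 of its wild-type reads 31 nt beyond the cut. mir849 had 6 of 27 fiery reads and its only wild-type read 28 nt beyond. Reads in these short tags show a 5′ end near the 3′ limit of the fragments, and whether they mark cuts was likewise not tested.

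Loop-side ends came from few members. Of the reads at either cut in members with 1 mature RNA on the 3′ arm, 35 of 341 in fiery (10.3%, 7.25 to 14) and 11 of 22 in wild type (50%, 28.2 to 71.8) were on the loop side, beside 2.14% and 5.37% over all such precursors. In fiery 19 of the 35 came from mir825, 8 from mir833 and 4 from mir776, and in wild type 7 of the 11 came from mir833 and 3 from mir846. mir833, in an intron of AT1G78476, had its main end at base 2 of the 3′ arm product in both libraries, with 8 of 24 fiery and 5 of 22 wild-type reads. In wild type the position 21 nt beyond the base-side cut held as many, and the base-side cut itself held 0 reads in both libraries.

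Where only a 5′ arm product is annotated, the 3′ arm cut was read from the predicted fold, with the 2-base overhang that DICER enzymes leave. Of the 10 such members, 4 had at least 10 fiery reads, and in 3 of them the main end, or one tied with it, lay within 1 nt of that position. Over all precursors of this kind with that many fiery reads it was so in 9 of 15. mir856 (chr1:11957460-11957730, plus strand) had its main end exactly at it, with 15 of 61 fiery reads (24.6%, 14.5 to 37.3), and the rest spread over 21 other ends. mir781, in an intron of AT1G21200, had 6 of 25 fiery reads at it and 13 within 1 nt. mir853, in an intron of AT3G23325, had 7 of 18 fiery reads at it and another 7 at the first base after its 5′ arm product. mir828, whose product targets MYB genes and the transcript TAS4, had none there: 11 of its 15 fiery reads lay upstream within 200 nt and 4 further away. None of the 10 had 10 reads in wild type.

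All antisense reads of both libraries were listed under 4 of these names: 152 fiery reads and 32 wild-type reads. They came from 4 precursors of 137 listed in fiery (2.92%) and 3 of 122 in wild type (2.46%). They were 9.90% of the members' fiery reads and 10.1% of their wild-type reads, or 5.01% and 2.07% without mir844. mir835 had 67 fiery and 5 wild-type reads, all on the strand opposite to its annotation. Their 5′ ends covered only nt 21 to 25 of the annotated precursor (37 fiery reads at nt 21), in tags of 26 to 30 nt, and 66 of the 67 fiery reads and all 5 in wild type had the same 3′ end 4 nt upstream of the first base, at nt -4. No read of mir835 lay on the annotated strand. mir844 had 79 fiery and 26 wild-type reads, all antisense, of which 78 and 26 lay on the sense strand of PAB4, a neighbouring gene for a poly(A)-binding protein that runs opposite to MIR844. They began between nt -2965 and 31 in fiery and between nt -2363 and -1384 in wild type. Coding exons of PAB4 held 68 fiery and 26 wild-type reads and an untranslated exon 10 fiery reads, while 1 fiery read lay over the hairpin itself. The 79 fiery reads had 45 different ends, the most frequent with 6 reads (7.59%), and just 1 end was shared with wild type.

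mir840, whose hairpin overlaps an untranslated exon of AT2G02750, had 5 fiery reads and 1 wild-type read, all antisense. Of these, 3 fiery reads (827 nt away, in an intron) and the wild-type read (705 nt away, in a coding exon) lay on the sense strand of WHY3, a neighbouring gene for a DNA-binding protein of the WHIRLY family. mir866 had its single fiery read on the opposite strand.

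Distant reads, over 200 nt from the hairpin on either strand, made up 11.4% (9.85 to 13.1) of the members' fiery reads and 28.2% (23.3 to 33.5) of their wild-type reads, or 6.66% and 21.7% without mir844. They occurred in 16 of 41 members in fiery and 13 of 29 in wild type, beside 29.2% and 22.1% of all precursors listed. Of those on the annotated strand, 45 of 94 fiery reads (47.9%, 37.5 to 58.4) and 54 of 62 wild-type reads (87.1%, 76.1 to 94.3) lay inside a protein-coding gene on its sense strand. mir852, in an intron of AT4G14500, had no other reads: all 19 fiery and 13 wild-type reads lay in that gene, from 235 to 1797 nt from the hairpin, and the 12 downstream fiery reads and 1 of the 2 downstream wild-type reads also overlapped AT4G14510. mir848 had 11 fiery reads and all 5 wild-type reads in its host AT5G13890, and mir862 had 4 fiery reads and all 4 wild-type reads in PKL. mir838, which lies in an intron of DCL1, the gene of DICER-LIKE1 itself, had its 3 wild-type reads in a coding exon of DCL1, at nt -656, while its 2 fiery reads began inside the mature RNA. mir837 had its 2 wild-type reads in a coding exon of its host NRT1.9.

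For mir825, 14 of its 16 wild-type reads began between nt -557 and -512, in an untranslated exon of the neighbouring gene AT2G26210, against 2 distant reads of 328 in fiery. For mir834, 9 of 16 wild-type reads lay at a single end, nt -431, in an intron of its host, and 0 of 21 in fiery. mir841 had 17 distant fiery and 8 distant wild-type reads, of which only 1 was on the sense strand of a protein-coding gene, and mir851a had 22 distant reads in fiery, 2 of them in such a gene. The other members with distant reads on the annotated strand were mir777, mir827, mir828, mir843, mir849, mir858, mir859, mir860 and mir870, each with 1 to 6 of them in a library.

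**Figure D5:**
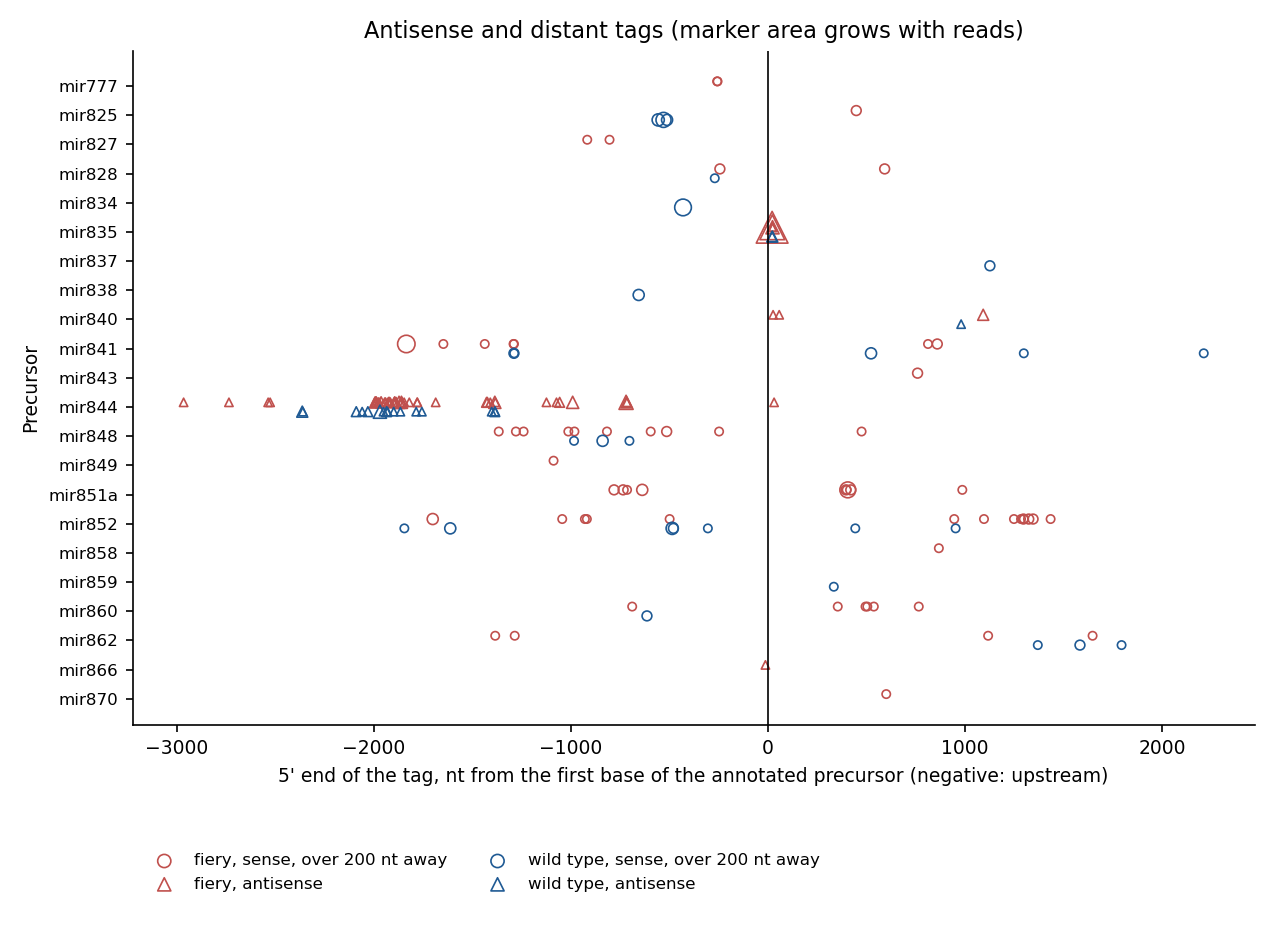
Position of the 5′ ends of antisense tags (triangles) and of tags over 200 nt away on the annotated strand (circles), counted from the first base of the annotated precursor, in fiery (red) and wild type (blue), with marker area growing with reads. The tags of mir844 cover a stretch from -2965 to 31, those of mir835 sit within 5 nt of each other, and those of mir852 lie on both sides of the hairpin.

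Between the libraries, the pooled share of the 44 precursors was 1.78-fold higher in fiery (1.57 to 2.01). Restricted to tags over 35 nt it was 1.12 (0.958 to 1.32), an interval that holds 1. The share counts RNA fragments with free 5′ ends and not the amount of precursor. In RNA from mixed tissue, fewer cells that hold such fragments and fewer fragments per cell cannot be told apart. Of 17 members whose reads in the 2 libraries summed to at least 30, 10 were at least 2-fold higher in share in fiery, beside 38.3% of all precursors compared, and 3 at least 2-fold lower, beside 39.5%. mir825 was 7.49-fold higher in fiery (4.54 to 13.3), and its reads near the hairpin were 326 against 2. With only tags longer than 35 nt it was 3.26-fold higher (1.98 to 5.77). mir845b was 14.7-fold higher in wild type (8.56 to 26.9), with only 2 of its 86 wild-type reads and 0 of its 16 fiery reads in tags over 35 nt. Tags of 35 nt or less held 65.6% of all wild-type reads but 22.4% of all fiery reads. Within such short tags mir845b held 16 of 7424 fiery reads and 84 of 7954 wild-type reads, so its share was higher in wild type there too. The ratio within short tags was not worked out. How much of the 14.7-fold goes with this difference in tag length is therefore not given. mir841 had a ratio of 1.77 (1.20 to 2.68), which became 0.575 (0.378 to 0.902) with only tags longer than 35 nt. mir844 and mir775 had ratios of 1.11 (0.705 to 1.80) and 0.901 (0.582 to 1.43), which also fell below 1 with the longer tags, at 0.474 (0.300 to 0.770) and 0.418 (0.262 to 0.684).

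The other members at least 2-fold higher in fiery were mir776 (6.76), mir835 (4.90), mir860 (4.18), mir848 (4.17), mir862 (4.02) and mir830 (3.61), and 3 had no wild-type read. By the floor of 3 counts the last were at least 9.38-fold (mir851a), 8.28-fold (mir870) and 7.43-fold (mir856) higher. With counting error in both libraries the exact lower limits were 7.45, 6.56 and 5.86. Both sets of limits are for tags of all lengths. In tags longer than 35 nt these 3 members had 72, 66 and 58 fiery reads and 0 wild-type reads, and no limit was worked out for those tags. With only tags longer than 35 nt, mir862 had a ratio of 0.567 (0.178 to 2.37), mir776 of 5.83 (0.982 to 237), mir860 of 2.43 (0.996 to 7.70), mir848 of 1.75 (0.705 to 5.61) and mir830 of 1.6 (0.774 to 3.83), and mir835 had no such tag. mir833 was lower in fiery, at 0.399 (0.214 to 0.746). mir834 had a ratio of 0.480 (0.238 to 0.983) over all its reads, but of 1.10 (0.449 to 3.05) over the 21 fiery and 7 wild-type sense reads within 200 nt of the hairpin. mir852 had a ratio of 0.534 (0.250 to 1.18). With the longer tags these were 0.162 (mir833), 0.250 (mir834) and 0.224 (mir852).

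In 8 members with at least 10 reads in each library the ends could be compared. The main end agreed within 1 nt in 3 of them, mir833, mir841 and mir845b, and lay elsewhere in 5. For mir833 the agreement rests on a tie, since another wild-type end held as many reads. mir841 had 7 ends in both libraries, which held 36.1% of its reads in fiery and 68.8% in wild type, and mir845b had 3, with 100% and 86.0%. mir775 had 5 in common, with 60.8% and 83.3%, although its main end was the base-side one in fiery and the upstream one in wild type. mir825 shared only the loop-side end, with 17 fiery reads and 1 wild-type read, and mir852 shared none of its 14 and 7 ends.

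By the reported targets of their products, the lists held 1 to 3 members each. The disease resistance list had mir825 alone, with 160 of 328 fiery reads and 1 of 16 wild-type reads at annotated cuts. The ion transport list had mir780 and mir856, with 19 of 84 fiery reads and 1 of 3 wild-type reads at such cuts, all from mir780. The chromatin and DNA methylation list had 3 members, mir841, mir773a and mir823 (the product of the last targets the chromomethylase gene CMT3), with 39 fiery and 7 wild-type reads at annotated cuts, all from mir841. The nutrient list had mir827, mir826 and mir857a, with 7 of 20 fiery reads at a cut, all from mir827, and 0 of 3 in wild type. The products of the last 2 target the glucosinolate gene AOP2 and a laccase gene. mir858, whose product targets MYB factors, had 2 fiery reads and mir828 had 15, with 0 at an annotated cut. mir859, whose product targets F-box genes, had 7 fiery reads at 4 ends and 1 wild-type read.

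In 15 members no library held 10 reads. mir839 had 7 fiery and 6 wild-type reads, with 5 of the latter at a single end that had no fiery read, and mir843 and mir826 had 5 fiery reads each. mir857a had 3 and 2 reads, all beginning 58 or 59 nt upstream of the hairpin. mir777 had 3 fiery reads, and mir823, mir831 and mir858 had 2 each, with no wild-type read. mir837 and mir867 had 2 wild-type reads each. For these precursors no main cut could be stated at this depth.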

How the data were processed

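The deposited files list sequence tags by precursor name, and the abundance beside each is a whole-number read count as deposited by the authors, with no sign of normalisation in the values. Per the labels' protocols, RNA depleted of ribosomal RNA was ligated to an adaptor, reverse transcribed with precursor-specific primers and amplified in 18 PCR cycles. The tools named per the submitters' processing notes are Bowtie, with the TAIR10 build; for its version, settings and the naming of tags, the sources used here give nothing. Tags had 26 to 40 nt in fiery and 26 to 50 nt in wild type.

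Each tag was placed on the TAIR10.1 genome with its RefSeq annotation by exact matching of both strands (seed of 26 nt), taking the match nearest the annotated precursor; positions count from 1. Tags with several matches held 6 fiery and 3 wild-type reads of the members. All 44 names were found, 7 after a change of the suffix letter. Copies of mir405 were counted as 1 precursor. Arms came from product names or from the fold predicted with RNAfold. The members, lists and windows were chosen with earlier results of these data known. Members with at least 30 reads in either library were described in full, those with 10 or more by reads and main end, and the rest by reads; sequences were shown for the highest and lowest main-end shares. With 1 library per group no test was run. Scripts were tested on simulated data. Alternatives varied the read minimum, the window at a cut, the distance and the tag length. Versions were Python 3.11.15, RNAfold 2.7.2, matplotlib 3.10.9, pandas 2.3.3, scipy 1.17.1 and numpy 2.4.6.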

Additional observations from a re-analysis of the deposited data

How the results depend on the processing

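No paired analysis was possible because there was 1 library per group, so leaving out a replicate could not be tried either. Of 54 alternatives for values of the whole set, 21 left the value within its interval or within 1.5 times the count, 33 moved it and 0 reversed it. Of 21 alternatives for ratios of single members, 11 stayed within the interval, 7 moved and 3 reversed. The ratio of mir841 was 0.575 and that of mir862 0.567 with only tags longer than 35 nt, and that of mir834 was 1.10 with sense tags within 200 nt. The pooled ratio of 1.78 was 1.12 with only tags longer than 35 nt, 2.12 with sense tags within 200 nt, 1.56 with tags of 1 match, 1.47 without mir825 and 2.41 without mir845b. Tags with several matches held 6 fiery and 3 wild-type reads of the members, but 2680 and 2357 of the whole libraries. The value of 1.56 thus moved mainly through the library totals. The count of 10 members at least 2-fold higher in fiery was 19 of 30 with at least 10 reads, 1 of 5 with at least 100 and 6 of 12 with only tags longer than 35 nt. The count of 3 members at least 2-fold lower was 5 of 30 with at least 10 reads and 1 of 5 with at least 100.

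The median main-end share was 9.55% in fiery and 14.3% in wild type with distinct tags counted once. As most ends had only 1 distinct tag, these values follow from the number of ends (medians of 10.5 and 7) and do not measure cut precision. The 7 fiery members with a base-side main end were 3 of 12 with at least 30 reads and 4 of 23 at the exact position. Fiery reads off the cuts were 84.8% at the exact position, 71.7% within 2 nt, 70.7% with only tags longer than 35 nt, 82.1% with precursors weighted equally, 71.5% with sense tags within 200 nt and 73.4% with cuts from the fold. Wild-type reads off the cuts were 87.3% with only tags longer than 35 nt.

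The antisense share was 13.1% (fiery) and 18.3% (wild type) with distinct tags counted once, and 5.01% and 2.07% without mir844. The distant share was 14.5% and 35.8% over 100 nt, 9.45% and 18.0% over 500 nt, 25.2% and 42.3% with distinct tags counted once, and 6.66% and 21.7% without mir844. The alternatives for single members, and those that leave out a precursor, use the fold, or keep only sense tags within 200 nt for the counts and the cuts were chosen after seeing the data. The cause was not tested. Depth is 1 limit, with 9 members of at least 10 reads in wild type.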
